A study of Mus musculus with 18 samples.

Results

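Complement components and regulators are described here through 9 genes, namely C1qa, C1qb, C1qc, C4b, C3, Cfb, Serping1, C3ar1, and C5ar1. They were chosen by name, with earlier results of these data known, so counts of members called describe these genes and do not test them as a set. They are 9 of the 34989 genes obtained when the estimated counts of all transcripts of a gene were summed. RNA was sequenced from the left ventricle (LV) and right ventricle (RV) of hearts from 12-week-old mice of strain C57B/L6, as the labels spell it. Each heart was flushed with HTK, a preservation solution, kept in ice-cold HTK for 0, 4, or 8 h of cold ischemic storage, and then perfused ex vivo with Krebs buffer for 1 h before the ventricles were frozen. The 0 h group received the same flush and perfusion, so it is a heart without storage and not an untouched heart. There were 3 libraries for each of the 6 groups, 18 in all. The labels name no genotype or drug, and by the study's methods the mice were wild type, of both sexes, and received heparin and then isoflurane before the heart was taken. The age given in those methods is lower than that in the labels. The labels do not state that replicates came from separate animals, so p-values measure the spread between these libraries.

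Complement is a cascade of proteins that mark cells and debris for removal and recruit leukocytes. In the classical pathway C1q binds a target, the proteases bound to it cleave C4 and C2, and the convertase that these form cleaves C3, the protein on which all pathways meet, while factor B forms the C3 convertase of the alternative pathway and amplifies the cascade. C1 inhibitor restrains the start of the cascade, and the fragments C3a and C5a act on leukocytes through their receptors. Most circulating complement is made in the liver, and macrophages, fibroblasts, and endothelial cells make some of it locally, C1q coming mainly from macrophages and other myeloid cells.

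The libraries held between 22552581 and 46236771 estimated counts. Each of the 9 genes passed the filter on low counts in LV, in RV, and over the 18 libraries. Cfb had the lowest count of the 9 genes in every library at 0 h, and it ranged from 36 to 1845 counts over the 18 libraries. C3 had the highest count in every library, between 2600 and 18660. Levels are given as CPM, the count of a gene scaled to the TMM-adjusted size of its library, and levels are compared between genes only as TPM, which also divides by transcript length. The labelled tissue matched its markers, since all 7 cardiomyocyte genes were tested and Myl2, a myosin light chain of ventricular muscle and their most abundant gene, had between 7400 and 14100 TPM. RNA came from whole ventricle, so that fewer cells of a type and less RNA per cell cannot be told apart. The libraries numbered 3 after 4 and 8 h stood apart from the others in both ventricles. The summed level of 12 interferon-induced genes was 5610 and 9040 CPM in these LV libraries and 6270 and 13400 CPM in these RV libraries, against at most 2810 CPM in any other library. The summed level of 4 Y-linked genes was between 4.63 and 6.78 CPM in these 4 libraries, between 133 and 194 CPM in the other stored libraries, and at 0 h it was 5.1 and 5.15 CPM in the libraries numbered 2 and between 145 and 170 CPM in those numbered 1 and 3.

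On the TPM scale Serping1, which encodes C1 inhibitor, had the highest mean level of the 9 genes in each group, from 62.9 ± 8.02 (SD, n = 3) in LV at 0 h to 103 ± 23 in RV at 8 h. C3 and the 3 C1q genes followed. In LV at 0 h their mean TPM was 40.7 ± 12.1 for C1qa, 38.6 ± 11.1 for C1qb, 32.2 ± 11.8 for C3, and 28.5 ± 8.32 for C1qc, and the libraries of each of these genes overlapped those of the next. Every library of that group had more C1qc than C5ar1 in TPM, and the remaining genes were C5ar1 at 6.23 ± 1.88, C4b at 4.44 ± 1.32, C3ar1 at 2.63 ± 0.407, and Cfb at 0.919 ± 0.387. In RV at 0 h C3 came before C1qa, with means of 61.3 ± 14.1 and 50.7 ± 12.3 TPM whose libraries overlapped. Cfb, the lowest of the 9 genes at 0 h in both ventricles, had 4.95, 5.04, and 32.9 TPM in LV and 9.96, 8.52, and 38.3 TPM in RV at 8 h. Replicate 3 was far above the other two, which lay below the means of C5ar1 and C4b, at 7.69 and 7.64 TPM in LV and 15.4 and 13.5 TPM in RV.

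The question of the design was how expression changes with storage time in each ventricle. Compared with 0 h, edgeR's quasi-likelihood test called 3 of the 9 genes higher in LV at 8 h (C3, Cfb, and Serping1), where 5.46% of the genes tested were called higher. In RV it called 2 genes higher at 4 h (Cfb and C5ar1; background 6.17%) and 6 genes higher at 8 h (C1qb, C4b, C3, Cfb, Serping1, and C5ar1; background 13%). A call required a Benjamini-Hochberg adjusted p under 0.1 over all genes tested and a fold change over 1.5. In LV at 4 h edgeR called 0 of the 9 genes (background 2.4%), 3 had an unadjusted p under 0.05 (15.6% of the genes tested), and DESeq2 called 2 of the 9, C3 and C5ar1, where 5.99% of its genes were called. In LV at 8 h DESeq2 called 5 of the 9 genes, C1qb, C4b, C3, Serping1, and C5ar1 (background 10.1%), and it gave no adjusted p for Cfb at either time in LV. No member was called lower in these comparisons. In LV the 9 genes had a median log2 fold change of 0.38 after 4 h, against -0.0044 over all genes tested, and of 0.68 after 8 h, against -0.02. The RV medians were 0.35 and 0.82, against 0.0034 and -0.07. All of these comparisons share the 0 h libraries of their ventricle.

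In LV at 4 h all 3 stored libraries lay above all 3 at 0 h, in CPM, for 3 of the 9 genes. They were C3, Cfb, and C5ar1, and this held for 12.9% of the genes tested. It held for 4 genes in LV at 8 h (Serping1 in addition; background 15.5%), for 2 in RV at 4 h (C3 and Cfb; 15.1%), and for 3 in RV at 8 h (C3, Cfb, and C5ar1; 18.5%). Because the stored libraries numbered 3 stood apart, the calls were repeated without them, a choice made after the data had been seen. Then 2 of the 9 genes were called higher in LV at 4 h (background 4.5%), 2 in LV at 8 h (4.74%), and 2 in RV at 4 h (8.1%), in each case Cfb and C5ar1. In RV at 8 h 4 were called higher, C4b, C3, Cfb, and C5ar1 (background 10.9%). Between 8 h and 4 h, edgeR and DESeq2 each called 0 of the 9 genes in either ventricle. The background of edgeR was 0% in LV and 0% in RV, and that of DESeq2 was 1.19% and 0.353%. At an unadjusted p under 0.05, 0 of the 9 genes passed in LV (background 8.1%) and 1 in RV (6.57%). With same-numbered libraries as a replicate block, edgeR called 2 of the 9 genes higher in LV at 4 h (Cfb and C5ar1; background 3.86%) and 5 in LV at 8 h (C1qb in addition to C3, Cfb, Serping1, and C5ar1; 8.1%). In RV the block left the calls unchanged at 4 h (8.45%) and 8 h (15.5%). Same-numbered LV libraries of 0 h and of the stored groups did not pass the check of pairing. Each heart had a single storage time, so same-numbered libraries of different times are not from the same heart. Their level of Y-linked genes also differed, at 5.1 and 5.15 CPM in those numbered 2 at 0 h and 153 to 178 CPM after storage. The calls against 0 h with this block are therefore less certain in both ventricles.

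**Figure D1:**
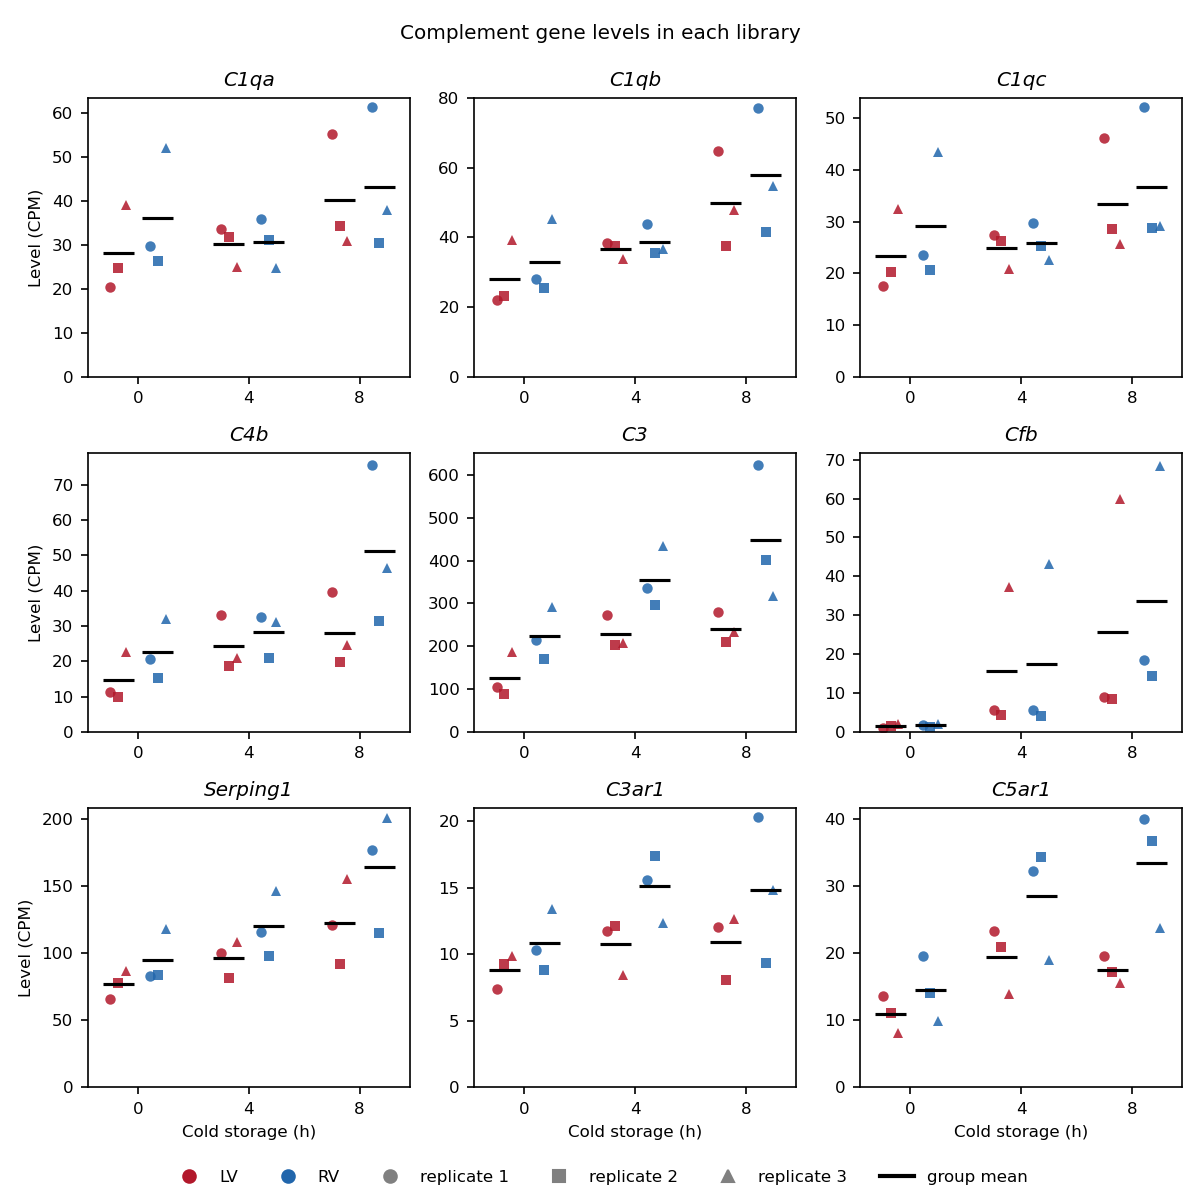
Level of each of the 9 complement genes in CPM (vertical axis, from 0) against hours of cold storage (horizontal axis) in the 18 libraries (LV red, RV blue, shape by replicate number, bars are means of 3 libraries). The 4 stored libraries numbered 3 have 37.3 to 68.3 CPM of Cfb, and the other stored libraries 4.01 to 18.5.

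C1q is made of 3 chains, encoded by C1qa, C1qb, and C1qc, which recognize the target in the classical pathway. In LV the levels of C1qb were 21.9, 23.3, and 39.2 CPM at 0 h, 38.5, 37.5, and 33.9 CPM at 4 h, and 64.8, 37.4, and 47.9 CPM at 8 h. At both storage times the stored libraries overlapped those at 0 h through replicate 3 of 0 h, which was high. In RV they were 28, 25.6, and 45.4 CPM at 0 h, 43.8, 35.6, and 36.6 CPM at 4 h, and 77.3, 41.7, and 54.9 CPM at 8 h. Replicate 3 was again the highest library at 0 h, above replicate 2 of 8 h and below the other two of that group. C1qb was called higher in RV at 8 h, at a log2 fold change of 0.82 (standard error, SE, of 0.27, adjusted p = 0.0736 in edgeR). In LV at 8 h the log2 fold change was 0.84 (SE 0.25) and edgeR's adjusted p, 0.102, missed the threshold. The RV call was lost when 1 of 5 libraries was left out, namely 0 h replicates 1 and 2, 4 h replicate 2, or 8 h replicates 1 and 3 (edgeR adjusted p between 0.107 and 0.236), and also without the stored libraries numbered 3, where the log2 fold change was 0.84 (edgeR adjusted p = 0.116). In LV, edgeR called C1qb at 8 h without 0 h replicate 3 (adjusted p = 0.07), without 8 h replicate 2 (0.0458), or with the replicate block (0.0784).

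C1qa and C1qc were called in none of the comparisons by edgeR. The levels of C1qa in LV were 20.4, 24.7, and 39.1 CPM at 0 h, 33.6, 31.7, and 25 CPM at 4 h, and 55.3, 34.4, and 30.8 CPM at 8 h. Levels in RV were 29.8, 26.3, and 52.1 CPM at 0 h, 35.9, 31.2, and 24.8 CPM at 4 h, and 61.4, 30.4, and 37.9 CPM at 8 h. The groups overlapped at every step, and replicate 3 was the highest library at 0 h and the lowest at 4 h in both ventricles. The log2 fold change of C1qa at 8 h was 0.52 (SE 0.28, adjusted p = 0.293 in edgeR) in LV and 0.27 (SE 0.31, adjusted p = 0.553 in edgeR) in RV. For C1qc, which ranged from 17.5 to 52.2 CPM over the 18 libraries, it was 0.52 (SE 0.28) in LV and 0.34 (SE 0.31) in RV.

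Ratios of the 3 chains were also taken. The ratio of C1qb to C1qa, both in CPM, was 1.07, 0.944, and 1 in the LV libraries at 0 h, 1.14, 1.19, and 1.36 at 4 h, and 1.17, 1.09, and 1.55 at 8 h. In RV it was 0.938, 0.972, and 0.871 at 0 h, 1.22, 1.14, and 1.47 at 4 h, and 1.26, 1.37, and 1.45 at 8 h. Each of the 12 stored libraries lay above each of the 6 libraries at 0 h. The ratio of C1qc to C1qa had group means between 0.801 ± 0.0275 and 0.854 ± 0.0879, and its groups overlapped. These ratios were chosen after the values had been seen and were not tested, and only their change between libraries can be read, since transcript length enters their size.

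Markers of macrophages were compared with the C1q genes. The summed level of 14 macrophage markers was 159, 185, and 232 CPM at 0 h, 225, 244, and 155 CPM at 4 h, and 272, 211, and 185 CPM at 8 h in LV. The RV values were 199, 216, and 289 CPM at 0 h, 265, 285, and 218 CPM at 4 h, and 457, 294, and 225 CPM at 8 h. Replicate 3 was highest at 0 h and lowest after storage in both ventricles, and the groups overlapped at every step. Of the 14 markers edgeR called 0 in LV at 4 h, 2 higher in LV at 8 h (Fcgr1 and Ctss), 1 higher in RV at 4 h (Timd4, and Fcgr1 in addition with the replicate block), and 5 higher in RV at 8 h (Adgre1, Mrc1, Fcgr1, Lyve1, and Timd4). In LV the block gave 1 at 4 h (Fcgr1) and 4 at 8 h (Lyve1 and Timd4 in addition). The log2 fold changes of the 14 were mixed in sign, although none was called lower. They were above 0 for 8 and 10 markers in LV and for 9 and 11 in RV at 4 and 8 h. F13a1 lay between 6.2 and 23.8 TPM and Folr2 between 6.16 and 23.9 TPM, and none of the 14 had under 10 counts in every library. Of 6 monocyte markers, summed at 67 to 218 CPM in a library and led by Lyz2, 4 were tested, and edgeR called Ly6c2 higher in LV at 8 h, 1 higher (Plac8) and 1 lower (Ccr2) in RV at 8 h, and Ccr2 lower in RV at 4 h, while Chil3 had under 10 counts in every library. The part of these cells in the values of C1q was not tested.

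C4b encodes complement C4, which is cleaved by the C1 complex. Its levels in LV were 11.3, 9.93, and 22.6 CPM at 0 h, 33.1, 18.6, and 20.9 CPM at 4 h, and 39.6, 19.8, and 24.7 CPM at 8 h. In RV they were 20.7, 15.2, and 32 CPM at 0 h, 32.6, 21, and 31.1 CPM at 4 h, and 75.6, 31.4, and 46.3 CPM at 8 h. Replicate 3 was the highest at 0 h and replicate 1 at 4 and 8 h in both ventricles, and stored libraries overlapped those at 0 h in each comparison. The log2 fold change at 8 h was 1.18 in RV (SE 0.35, adjusted p = 0.0567 in edgeR), a call, and 0.95 in LV (SE 0.37, adjusted p = 0.173 in edgeR). The RV call was lost without 0 h replicate 1, 0 h replicate 2, or 8 h replicate 1 (edgeR adjusted p between 0.141 and 0.192), and without 8 h replicate 2 C4b was called in LV (edgeR adjusted p = 0.0947). C4a, a neighbouring gene of near-identical sequence, was not analysed here, and reads from it could have been counted to C4b, which makes the C4b level less certain than its counts imply.

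Serping1 encodes C1 inhibitor, the serpin that inactivates the proteases bound to C1q. Its levels in LV were 65.6, 77.5, and 86.4 CPM at 0 h, 100 (replicate 1), 81.3, and 108 CPM at 4 h, and 121, 91.7, and 155 CPM at 8 h. In CPM all 3 libraries at 8 h lay above all 3 at 0 h in LV. The highest in each LV group was replicate 3. In TPM LV 8 h replicate 2, at 62, lay below LV 0 h replicate 2, at 67.7. The RV levels were 82.8, 83.9, and 118 CPM at 0 h, 116, 97.9, and 146 CPM at 4 h, and 177, 115, and 201 CPM at 8 h. Replicate 3 was again the highest in each group, and in RV replicate 2 at 8 h lay below replicate 3 at 0 h. At 8 h the log2 fold change was 0.68 in LV (SE 0.20, adjusted p = 0.0962 in edgeR) and 0.81 in RV (SE 0.26, adjusted p = 0.0734 in edgeR), both calls. In LV the call was kept only without 8 h replicate 2 and was lost when any other of the 9 LV libraries was left out (edgeR adjusted p between 0.11 and 0.28). In RV it was lost without 0 h replicates 1 or 2 or 8 h replicates 1 or 3 (edgeR adjusted p between 0.154 and 0.225). Without the stored libraries numbered 3 the log2 fold change at 8 h was 0.47 in LV (edgeR adjusted p = 0.187) and 0.61 in RV (0.134), and neither was called.

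C3 is cleaved in every activation pathway and supplies both the opsonin C3b and the fragment C3a. Its levels in LV were 104, 87.8, and 187 CPM at 0 h, 273, 203, and 207 CPM at 4 h, and 280, 209, and 234 CPM at 8 h. In RV they were 214, 170, and 291 CPM at 0 h, 336, 296, and 433 CPM at 4 h, and 624, 402, and 317 CPM at 8 h. In CPM every stored library lay above every 0 h library of its ventricle. The narrowest gap was in RV at 4 h, between replicate 3 of 0 h and replicate 2 of 4 h. In TPM replicate 3 of 8 h overlapped 0 h, at 57.7 in RV against 45 to 70.4, and at 44 in LV against 24.3 to 45.7. At 8 h the log2 fold change was 0.94 in LV (SE 0.27, adjusted p = 0.0918 in edgeR) and 0.99 in RV (SE 0.29, adjusted p = 0.0524 in edgeR), both calls. At 4 h it was 0.86 in LV (SE 0.27, adjusted p = 0.174 in edgeR) and 0.67 in RV (SE 0.29, adjusted p = 0.212 in edgeR). The LV call at 8 h was lost without 0 h replicates 1 or 2, 4 h replicates 1 or 2, or 8 h replicates 1 or 3 (edgeR adjusted p between 0.113 and 0.298) and without the stored libraries numbered 3, where the log2 fold change was 0.95 (0.143). The RV call at 8 h was lost without 0 h replicates 1 or 2 or 8 h replicate 1 (edgeR adjusted p between 0.132 and 0.19), and without 0 h replicate 3 C3 was called in LV at 4 h (0.0962).

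Fibroblasts and hepatocytes are known sources of C3 and C4, so their markers were set beside these genes. The summed level of 8 fibroblast markers in LV was 1700, 1930, and 1870 CPM at 0 h, 2390, 1840, and 1780 CPM at 4 h, and 2660, 1970, and 2430 CPM at 8 h. In RV it was 2420, 2580, and 2470 CPM at 0 h, 2650, 2150, and 2560 CPM at 4 h, and 4080, 2450, and 3180 CPM at 8 h. Replicate 1 was the highest stored library in each group, as it was for C4b, and the 0 h sums were higher in RV than in LV. EdgeR called 1 of the 8, Tcf21, higher in RV at 8 h, where 2 were called with the replicate block (Col1a1 in addition), and 0 in the other 3 comparisons with 0 h. Gsn, the most abundant, had 482 to 952 TPM, and none of the 8 had under 10 counts in every library. Their part in the levels of C3, C4b, and Serping1 was not tested. Hepatocyte markers were near 0, with sums of 0.0653 to 0.852 CPM over 5 genes. Alb, Apoa1, Serpina1a, and Fga had under 10 counts in every library, and Ttr, the most abundant, at most 0.881 TPM, although edgeR called it higher in RV at 4 h (log2 fold change 3.1, adjusted p = 0.0399).

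Cfb encodes complement factor B, the protease of the alternative pathway convertase. Its levels in LV were 1.03, 1.62, and 2.05 CPM at 0 h, 5.72, 4.28, and 37.3 CPM at 4 h, and 9, 8.47, and 59.8 CPM at 8 h. Levels in RV were 1.75, 1.22, and 2.02 CPM at 0 h, 5.52, 4.01, and 43.1 CPM at 4 h, and 18.5, 14.3, and 68.3 CPM at 8 h. Every stored library lay above every 0 h library, and replicate 3 was far above the other stored libraries at each time in both ventricles. The log2 fold change at 8 h was 4.05 in LV (SE 1.09, adjusted p = 0.0768 in edgeR) and 4.37 in RV (SE 1.03, adjusted p = 0.0239 in edgeR). At 4 h it was 3.34 in LV (SE 1.06, adjusted p = 0.175 in edgeR, not called) and 3.41 in RV (SE 1.00, adjusted p = 0.0783 in edgeR, called). With the replicate block the values were smaller and all 4 were called, at 2.71 and 3.46 in LV (adjusted p = 0.0403 and 0.0114 in edgeR) and 2.68 and 3.97 in RV (adjusted p = 0.0195 and 0.00258 in edgeR) at 4 and 8 h.

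Without the stored libraries numbered 3, the log2 fold change of Cfb was smaller and its SE was 0.25 to 0.27. It was then 1.69 at 4 h and 2.48 at 8 h in LV (edgeR adjusted p = 0.0166 and 0.00145) and 1.53 and 3.28 in RV (edgeR adjusted p = 0.00879 and 1.4e-04), and all 4 were calls. Leaving out 1 library of a ventricle ended the LV call at 8 h in 4 of 9 fits, those without any 1 library of 0 h or without 8 h replicate 3 (edgeR adjusted p between 0.18 and 0.262). It ended the RV call at 4 h in 4 of 9 fits, without any 1 library of 0 h or without 4 h replicate 3 (edgeR adjusted p between 0.157 and 0.261), and the RV call at 8 h without 0 h replicate 2 (0.11). Without LV 8 h replicate 3, Cfb was called in LV at 4 h (edgeR adjusted p = 0.0686). A readthrough gene, Gm20547, overlaps Cfb on the same strand, and it had at most 39 counts in a library and a count of 1 or more in 3 libraries.

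Cfb is known to be induced by interferons and through NF-kB, and genes of both responses were set beside it. The summed level of the 12 interferon-induced genes in LV was 345, 285, and 239 CPM at 0 h, 973, 695, and 5610 CPM at 4 h, and 1290, 1640, and 9040 CPM at 8 h. The RV values were 416, 235, and 232 CPM at 0 h, 1080, 769, and 6270 CPM at 4 h, and 1710, 2810, and 13400 CPM at 8 h. Replicate 3 was the highest stored library for this sum as it was for Cfb. EdgeR called 4 of these 12 genes higher in LV at 4 h, 11 in LV at 8 h, 8 in RV at 4 h, and 11 in RV at 8 h (8, 11, 10, and 11 with the replicate block), and Cxcl10, the most abundant, ranged from 11.4 to 2190 TPM. Of 12 NF-kB-induced genes, 6, 8, 11, and 12 were called higher in the same order, and 7, 11, 12, and 12 with the replicate block. Their sum was 1810, 725, and 408 CPM at 0 h, 3480, 2820, and 4010 CPM at 4 h, and 2620, 2990, and 5490 CPM at 8 h in LV, and 1930, 628, and 419 CPM, 4700, 4320, and 4830 CPM, and 5270, 4720, and 8170 CPM in RV. Their most abundant gene was Icam1, at 42.8 to 1220 TPM. None of the 24 genes had under 10 counts in every library. The low level of Y-linked genes in the same libraries numbered 3 is given above, and the part of these responses or of the animal in the level of Cfb was not tested.

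**Figure D2:**
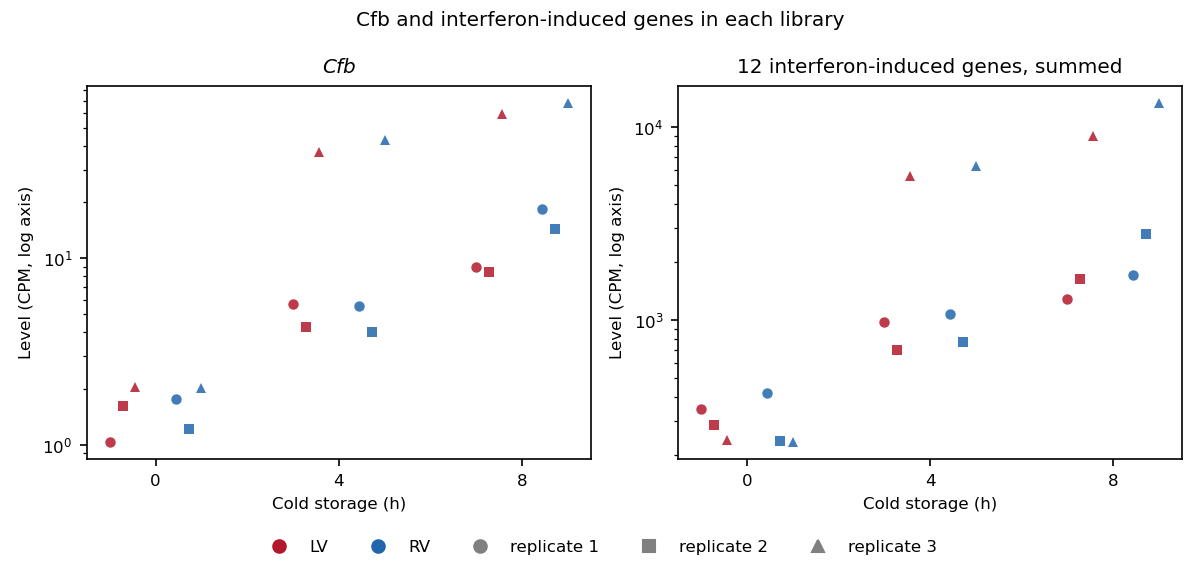
Level of Cfb (left) and summed level of 12 interferon-induced genes (right), in CPM on a log axis, against hours of cold storage in the 18 libraries (LV red, RV blue, shape by replicate number). The 4 stored libraries numbered 3 are the highest in both panels, at 37.3 to 68.3 CPM of Cfb and 5610 to 13400 CPM of the summed genes.

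C5ar1 encodes the receptor through which C5a draws and activates neutrophils and macrophages. Its levels in LV were 13.6, 11.1, and 8.03 CPM at 0 h, 23.3, 20.9, and 13.9 CPM at 4 h, and 19.5, 17.2, and 15.6 CPM at 8 h. In RV they were 19.5, 14, and 9.86 CPM at 0 h, 32.2, 34.3, and 19 CPM at 4 h, and 40, 36.8, and 23.7 CPM at 8 h. Replicate 3 was the lowest library of each group, the reverse of its place for Cfb. In CPM only RV 4 h replicate 3 fell below a 0 h library of its ventricle. In TPM replicate 3 did so in each stored group, as did LV 8 h replicate 2, at 7.48. The TPM of replicate 3 was 6.59 and 6.29 in LV and 8.82 and 9.26 in RV at 4 and 8 h. In RV the log2 fold change was 0.99 at 4 h (SE 0.30, adjusted p = 0.0901 in edgeR) and 1.22 at 8 h (SE 0.30, adjusted p = 0.031 in edgeR), both calls. In LV it was 0.83 at 4 h (SE 0.23, adjusted p = 0.134 in edgeR) and 0.68 at 8 h (SE 0.23, adjusted p = 0.132 in edgeR), and neither was called. Without the stored libraries numbered 3 all 4 were calls, with log2 fold changes of 1.01 and 0.73 in LV (edgeR adjusted p = 0.0357 and 0.0967) and 1.21 and 1.39 in RV (0.0174 and 0.00665). The RV call at 4 h was lost without 0 h replicates 2 or 3, 4 h replicates 1 or 2, or 8 h replicates 1 or 2 (edgeR adjusted p between 0.101 and 0.299), and that at 8 h without 0 h replicates 2 or 3 (0.111 and 0.12 as the lowest and highest). In LV it was called at 4 h without 0 h replicate 1 (edgeR adjusted p = 0.0912) and at 8 h without 4 h replicate 3 (0.0871), and with the replicate block at both times (0.0266 and 0.0218).

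C3ar1 encodes the receptor of C3a and was called in none of the comparisons by edgeR. Its levels in LV were 7.37, 9.25, and 9.83 CPM at 0 h, 11.7, 12.1, and 8.46 CPM at 4 h, and 12, 8.03, and 12.6 CPM at 8 h. In RV they were 10.3, 8.77, and 13.4 CPM at 0 h, 15.6, 17.4, and 12.3 CPM at 4 h, and 20.3, 9.33, and 14.8 CPM at 8 h. The groups overlapped, and in both ventricles replicate 2 was the highest library at 4 h and the lowest at 8 h. At 4 h the log2 fold change was 0.29 in LV (SE 0.21, adjusted p = 0.578 in edgeR) and 0.50 in RV (SE 0.28, adjusted p = 0.359 in edgeR). Its log2 fold change at 8 h was 0.31 in LV (SE 0.21, adjusted p = 0.404 in edgeR) and 0.47 in RV (SE 0.28, adjusted p = 0.267 in edgeR), and without RV 8 h replicate 2 it was called in RV (0.0566).

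Neutrophils carry C5ar1, and their markers were low. Of 9 such markers 4 were tested in LV and 2 in RV. The summed level of 9 neutrophil markers in LV was 1.94, 2.19, and 2.4 CPM at 0 h, 3.92, 5.95, and 8.61 CPM at 4 h, and 20.1, 10.6, and 14.5 CPM at 8 h. In RV it was 2.92, 1.79, and 3.46 CPM at 0 h, 5.65, 7.27, and 10.4 CPM at 4 h, and 17.3, 12.7, and 20.1 CPM at 8 h. Every stored library lay above every 0 h library of its ventricle. Ly6g, Elane, and Camp had under 10 counts in every library. Csf3r, at 0.386 to 5.44 TPM, was called higher by edgeR in all 4 comparisons with 0 h. S100a8, at 0 to 11 TPM, and S100a9, at 0 to 21 TPM, were called higher in LV at 8 h, and Cxcr2 was called in none. The part of neutrophils in the level of C5ar1 was not tested. Of 8 lymphocyte markers, 1 was tested in LV and 2 in RV. Their sums were 0.764 to 4.22 CPM, Cd3d (the most abundant, at most 2.59 TPM) was called higher in RV at 4 h (and at 8 h with the replicate block), and Cd3e, Cd3g, and Ncr1 had under 10 counts in every library.

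**Figure D3:**
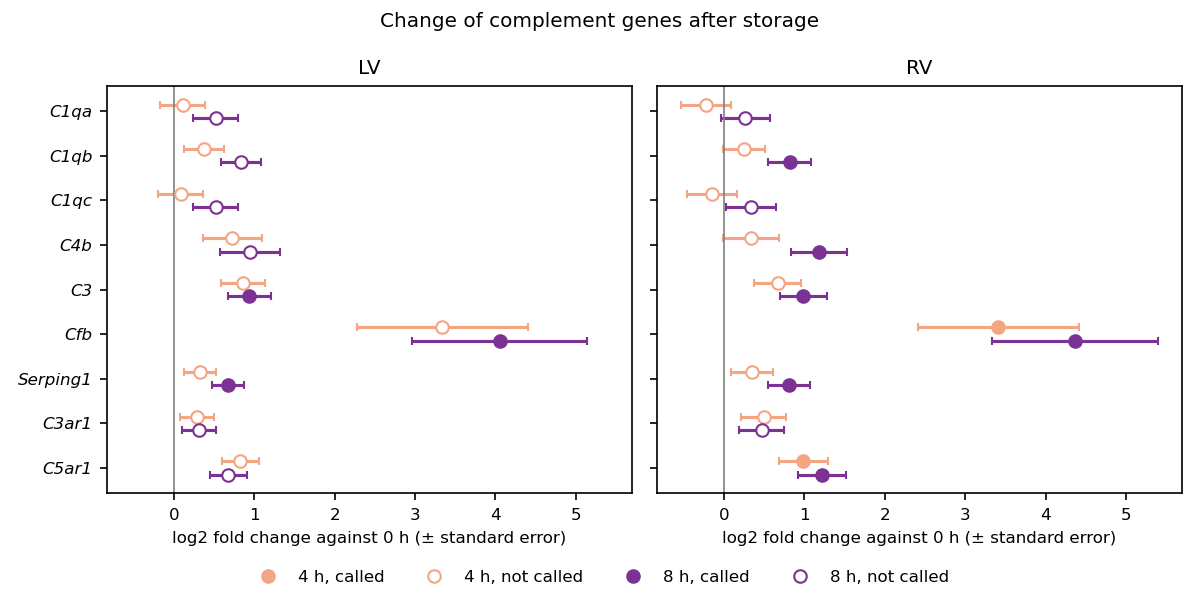
Log2 fold change of the 9 complement genes at 4 h (orange) and 8 h (purple) of storage against 0 h in LV (left) and RV (right), from edgeR, with standard errors as bars and called genes (adjusted p under 0.1 and fold change over 1.5) as filled points. Cfb has the highest value in each panel, 4.05 in LV and 4.37 in RV at 8 h.

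The ventricles were compared at each storage time. All 9 genes had a lower fitted level in LV than in RV at 0, 4, and 8 h. Their median log2 fold change between LV and RV was -0.32, -0.22, and -0.42, against -0.01, -0.00083, and 0.01 over all genes tested. In same-numbered libraries RV was the higher in all 3 pairs for 7 of the 9 genes at 0 h, where this held for 21.2% of the genes tested, for 4 at 4 h (background 21.4%), and for 8 at 8 h (24.1%). Without a block edgeR called 0 of the 9 genes at each time, beside a background of 0.159%, 0.0133%, and 0.0331%, and 1, 1, and 3 genes had an unadjusted p under 0.05 (background 3.21%, 2.96%, and 11.1%). DESeq2 also called 0, beside 0.356%, 0.145%, and 1.32%. Same-numbered LV and RV libraries shared their deviations from the group means. With the pair as a replicate block, edgeR called 2 genes lower in LV at 0 h (C4b and C3; background 1.01%), 1 at 4 h (C3; 1.09%), and 4 at 8 h (C4b, C3, Cfb, and C5ar1; 6.53%).

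C3 was lower in LV in each of the 9 pairs. The log2 ratio of LV to RV was -1.05, -0.95, and -0.64 at 0 h, -0.30, -0.54, and -1.06 at 4 h, and -1.15, -0.94, and -0.43 at 8 h. With the block its log2 fold change between LV and RV was -0.88 at 0 h (SE 0.16, adjusted p = 0.0183 in edgeR), -0.63 at 4 h (SE 0.16, adjusted p = 0.0619 in edgeR), and -0.84 at 8 h (SE 0.16, adjusted p = 0.00371 in edgeR). Without the block the values of C3 were -0.84, -0.64, and -0.89, at adjusted p of 0.983, 1, and 0.312 in edgeR. For C4b the log2 ratios were -0.87, -0.61, and -0.50 at 0 h, 0.03, -0.18, and -0.57 at 4 h, and -0.93, -0.66, and -0.90 at 8 h. The pairs at 4 h thus differed in sign, and those at 0 and 8 h did not. With the block C4b had -0.66 at 0 h (edgeR adjusted p = 0.0142) and -0.84 at 8 h (edgeR adjusted p = 5.9e-04), and without it -0.63 and -0.87 (1 and 0.434). C5ar1 was lower in LV in each of the 9 pairs, by log2 ratios of -0.52, -0.33, and -0.30 at 0 h, -0.46, -0.72, and -0.45 at 4 h, and -1.04, -1.09, and -0.60 at 8 h. The 8 h ratios lay below those at 0 h without overlap, and the blocked value at 8 h was -0.92 (SE 0.10, adjusted p = 2.9e-04 in edgeR, and 0.279 without the block). Cfb at 8 h had log2 ratios of -1.04, -0.76, and -0.19 (blocked value -0.62, edgeR adjusted p = 0.0153, and 0.893 without the block), and at 0 h its pairs had -0.76, 0.41, and 0.02. Serping1 was also lower in LV in each of the 9 pairs, with means between -0.30 ± 0.17 and -0.42 ± 0.11, under the fold change required for a call. 

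Marker genes also differed between the ventricles. In all 9 same-numbered pairs the summed level of macrophage markers given above was higher in RV, and so was that of fibroblast markers. With the block edgeR called Cd163 lower in LV at 0, 4, and 8 h, at log2 fold changes of -0.62, -0.66, and -0.94 (edgeR adjusted p = 0.0542, 0.0445, and 0.00173). At 8 h it also called the macrophage markers Mrc1, Lyve1, Timd4, and Folr2 and the fibroblast marker Tcf21 lower in LV, the last at -0.81 (adjusted p = 0.00127 in edgeR). Of the neutrophil markers at 8 h, Csf3r was called lower and S100a8 and S100a9 higher in LV with the block. Also lower in LV with the block were the monocyte markers Ccr2 at 0 h and Plac8 at 8 h, the mural markers Acta2 at 0 h and Tagln at 8 h, and the lymphocyte marker Cd3d at 8 h. At 8 h, where Cfb was called lower in LV, all 12 NF-kB-induced genes and 6 of the 12 interferon-induced genes were called lower in LV with the block, against 1 and 0 at 4 h and 0 and 0 at 0 h. Of 25 other complement genes tested the block gave Masp1 higher in LV at 0, 4, and 8 h, Vsig4 lower at 0 h, and Fcna, Cfd, and Itgb2 lower at 8 h. The part of these cells and responses in the differences between the ventricles was not tested.

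Whether storage changed the ventricles differently was tested by comparing the change from 0 h in LV with that in RV. EdgeR called 0 of the 9 genes at 4 h and 0 at 8 h (background 0% and 0%), with 0 at an unadjusted p under 0.05 at either time (background 1.05% and 4.16%), and DESeq2 called 0 at both times (background 0% and 0.00831%). With the replicate block edgeR again called 0 genes at 4 h (0.305%) and 0 at 8 h (5.71%). C5ar1 at 8 h had the adjusted p under 0.1 but a difference below the fold required, with a log2 value of -0.53 (SE 0.14, adjusted p = 0.0468 in edgeR with the block, and 1 without it). Calls made in RV and not in LV therefore do not show that the ventricles differed in their change.

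Of 45 other complement genes 44 were quantified and 25 were tested, and 15 had under 10 counts in every library, among them the terminal component Hc and the lectins Mbl1 and Mbl2, which are liver products. The others of these 15 were C1rb, C1s2, Masp2, Fcnb, Colec10, C8a, C8b, C9, Cfi, Cpn1, Cd55b, and Cr2. EdgeR called 0 of the 25 in LV at 4 h and 3 higher in LV at 8 h (C1s1, Cfp, and Itgax). In RV it called 2 lower at 4 h (Colec11 and Vsig4) and 4 higher at 8 h (C1ra, C1s1, Cfp, and Itgam). With the replicate block 7 were called in RV at 8 h, in either direction (Masp1, Cfd, and Itgb2 in addition). Over all genes tested, the calls in either direction were 407 and 978 of 14564 in LV at 4 and 8 h. In RV they were 1474 and 2665 of 14622. With the block they were 1540 in LV and 3548 in RV at 8 h. The median log2 fold change of the 25 genes was 0.21 and 0.22 in LV and 0.13 and 0.41 in RV at 4 and 8 h. C1s1 and C1ra encode the proteases that C1q activates. C1s1 had 28.3, 28.6, and 30.2 CPM at 0 h and 44.8, 38.7, and 65.7 CPM at 8 h in LV, and 34.6, 31.8, and 40.1 CPM at 0 h and 69.2, 49.9, and 81.5 CPM at 8 h in RV. Its groups did not overlap, and its log2 fold change was 0.78 in LV (SE 0.18, adjusted p = 0.0503 in edgeR) and 0.93 in RV (SE 0.23, adjusted p = 0.0303 in edgeR).

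C1ra had 20.5, 19.1, and 23 CPM at 0 h and 43.3, 29.6, and 67 CPM at 8 h in RV, a log2 fold change of 1.18 (SE 0.33, adjusted p = 0.045 in edgeR), and its groups did not overlap. In LV at 8 h, where its groups did not overlap either, it had 1.04 (SE 0.32, adjusted p = 0.107 in edgeR) and was called with the replicate block (0.93, adjusted p = 0.0416 in edgeR), which made 4 of the 25 genes in that comparison. Cfp, which encodes properdin, the stabilizer of the alternative pathway convertase, had log2 fold changes at 8 h of 0.89 in LV (edgeR adjusted p = 0.0867) and 0.98 in RV (0.0667). Itgam and Itgax encode the chains that make complement receptors of leukocytes, and their log2 fold changes were 0.94 for Itgam in RV (edgeR adjusted p = 0.0361) and 1.39 for Itgax in LV (0.0581) at 8 h, Itgax having 13 to 65 counts in a library. Vsig4, a macrophage receptor for C3b, had 1.46, 2.61, and 2.58 CPM at 0 h and 0.511, 0.817, and 0.554 CPM at 4 h in RV, a log2 fold change of -1.81 (SE 0.43, adjusted p = 0.0424 in edgeR). The groups did not overlap, and the direction was opposite to that of the called members. Colec11, a lectin of the complement system, had -0.79 in RV at 4 h (edgeR adjusted p = 0.0639). Clu, which encodes clusterin, an inhibitor of the terminal complex, was the most abundant of the list, at 226 to 565 TPM, and was not called.

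Markers of the remaining cell types were as follows. Of 7 endothelial markers, led by Egfl7 at 12.5 to 158 TPM and summed at 412 to 1040 CPM, edgeR called 2 lower in RV at 4 h (Tek and Egfl7) and 1 lower in RV at 8 h (Egfl7), and with the replicate block 1 at either time. Of 6 mural cell markers, led by Rgs5 at 138 to 230 TPM and summed at 621 to 1290 CPM, it called 2 lower in RV at 4 h (Pdgfrb and Kcnj8) and 1 lower in RV at 8 h (Kcnj8). With the block Pdgfrb was also called lower in LV at 4 h (log2 fold change -0.84, adjusted p = 0.083 in edgeR), and Tagln was also called at 8 h in RV, higher, at a log2 fold change of 0.74 (adjusted p = 0.0167 in edgeR). None of these 13 genes, or of the 7 cardiomyocyte markers, had under 10 counts in every library.

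The cardiomyocyte markers summed to 78200, 71100, and 63200 CPM at 0 h, 71800, 65900, and 72800 CPM at 4 h, and 53400, 56800, and 46300 CPM at 8 h in LV. In RV the sums were 78500, 74500, and 63700 CPM at 0 h, 73700, 70800, and 70900 CPM at 4 h, and 55300, 65500, and 30000 CPM at 8 h. The libraries at 4 h lay within the range of 0 h in both ventricles. Every LV library at 8 h lay below every LV library at 0 h, and in RV only replicate 2 of 8 h lay above a 0 h library. EdgeR called Myh6 lower in LV at 8 h, Ryr2 in addition with the replicate block (log2 fold change -0.62, adjusted p = 0.0334 in edgeR), and none of the 7 in RV, where all 7 had a log2 fold change under 0 at 8 h. Mitochondrial genes took 24.1 to 28.3% of the counts in LV and 22.7 to 32.6% in RV at 0 h, 24.9 to 26.4% and 26.1 to 27.7% at 4 h, and 32 to 34.4% and 33.3 to 34.2% at 8 h. The share at 4 h was thus within the range of 0 h, and every library at 8 h was above every 0 h library of its ventricle. CPM is a share of the library, and the part of the muscle and mitochondrial RNA in the changes of the 9 genes was not tested.

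Over the 18 libraries, levels of log2 CPM were correlated within the 9 genes as a description, since the libraries share groups and scaling. C1qa and C1qc had a Pearson r of 0.99, C1qb and C4b 0.92, and C4b and C3 0.91. Cfb had 0.83 with Serping1 and 0.14 with C1qa, and C5ar1 had at most 0.68 with any other member, C3. Among 15084 other genes, the closest to the mean of the 3 C1q chains were Chst11 and Sod3 (r = 0.94) and Slc11a1 (0.93). For C4b they were Spon1 (0.97), Ptgis (0.95), and Serpine2 (0.94), and for C3 Serpine2 (0.92), Adgrd1 (0.90), and Gas7 (0.89). For Cfb they were Gbp2, Lcn2, and Ifi204, each with r = 0.99. Gbp2 belongs to the interferon-induced genes set beside Cfb above, and Lcn2 to the NF-kB-induced genes. The stored libraries numbered 3 were also the highest for Gbp2, at 574 and 1180 CPM in LV and 806 and 1940 CPM in RV. Elsewhere Gbp2 had at most 355 CPM. For Serping1 they were C1s1 (0.97), Cd302 (0.96), and Igsf8 (0.95). For C3ar1 they were Cdc6 and Lyve1 (0.88) and Elfn1 (0.87), and for C5ar1 Fst and Rap2b (0.95) and Lilr4b (0.93).

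In GRCm38 the 9 genes lie on 5 chromosomes, all on the minus strand. C1qb (ENSMUSG00000036905; chr4:136880129-136886187), C1qc (ENSMUSG00000036896; chr4:136889804-136893065), and C1qa (ENSMUSG00000036887; chr4:136895917-136898803) form a cluster of 18675 bases. C4b (ENSMUSG00000073418; chr17:34728380-34743882) and Cfb (ENSMUSG00000090231; chr17:34856374-34862518) lie 112491 bases apart, and C3 (ENSMUSG00000024164; chr17:57203970-57228136) is on the same chromosome. Serping1 (ENSMUSG00000023224) is at chr2:84765387-84775444, C3ar1 (ENSMUSG00000040552) at chr6:122847138-122856161, and C5ar1 (ENSMUSG00000049130) at chr7:16246743-16259540. C1qa, C1qb, and C3ar1 had 1 quantified transcript each, and the leading transcript took at least 98.5% of the counts of C1qc, 97.9% of C3, 91.7% of Serping1, and 90.2% of C4b in every library. For Cfb, with 8 transcripts, that share ranged from 0.000316 to 99.5%, and for C5ar1, with 3, from 31.4 to 99.7%, so that only the sum over transcripts is used for these genes.

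Promoter sequences from RefSeq (GRCm38.p6), 250 bases before to 50 bases after the start of the gene, matched 5 of the 9 genes, C1qb, C1qc, C3ar1, C5ar1, and C3. The other 4 were C1qa, C4b, Cfb, and Serping1. Letters were searched on both strands in these 5 and in all 32851 promoters. The letters TTNNGNAA, a pattern of C/EBP sites, occurred in 3 of the 5 (C3, C1qc, and C5ar1) and in 40.7% of all promoters. GAGGAA, the core of PU.1 sites, occurred in 2 (C1qb and C1qc) and in 28.3%, GAAANNGAA, a part of interferon response elements, in 1 (C5ar1) and in 8.56%, TTCNNNGAA, a STAT pattern, in 0 and in 8.3%, and GGANTTTCC, an NF-kB pattern, in 0 and in 1.25%. A match is a run of letters and no evidence of binding. The sequences below are those of the called genes C3, C1qb, and C5ar1 and of C1qc, the neighbour of C1qb that was not called, each given 5′ to 3′ on the minus strand with the matches in capitals. C3 (chr17:57228087-57228386) had 3 matches to the C/EBP pattern, from bases -70, -58, and -45, where the start of the gene is the base after -1. C1qb (chr4:136886151-136886450) had its PU.1 match from base -30. C1qc (chr4:136892865-136893164) had a PU.1 match from base -193 and a C/EBP match from base -81. C5ar1 (chr7:16259289-16259588) had a C/EBP match from base -157 and the interferon pattern from base -66. C3ar1 (chr6:122856108-122856407) held none of the 5 patterns. These starts are those of RefSeq, and the GENCODE gene starts 202 bases before them for C5ar1 and 151 bases before for C1qc, so that both matches of C5ar1 and the C/EBP match of C1qc lie within the GENCODE gene. For C3 the starts are equal, and for C1qb and C3ar1 they differ by 13 and 4 bases.
C3: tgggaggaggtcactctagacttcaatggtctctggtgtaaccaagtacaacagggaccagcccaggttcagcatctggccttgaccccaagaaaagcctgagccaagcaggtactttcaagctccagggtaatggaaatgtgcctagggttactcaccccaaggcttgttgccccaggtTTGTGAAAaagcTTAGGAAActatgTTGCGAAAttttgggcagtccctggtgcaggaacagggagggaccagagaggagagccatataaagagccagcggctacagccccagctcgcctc
C1qb: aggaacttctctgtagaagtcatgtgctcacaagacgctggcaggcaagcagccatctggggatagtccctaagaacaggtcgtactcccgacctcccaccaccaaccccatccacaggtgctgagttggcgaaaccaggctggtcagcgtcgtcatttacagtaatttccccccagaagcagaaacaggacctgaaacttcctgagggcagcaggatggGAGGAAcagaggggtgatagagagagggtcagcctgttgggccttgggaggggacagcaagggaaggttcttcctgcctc
C1qc: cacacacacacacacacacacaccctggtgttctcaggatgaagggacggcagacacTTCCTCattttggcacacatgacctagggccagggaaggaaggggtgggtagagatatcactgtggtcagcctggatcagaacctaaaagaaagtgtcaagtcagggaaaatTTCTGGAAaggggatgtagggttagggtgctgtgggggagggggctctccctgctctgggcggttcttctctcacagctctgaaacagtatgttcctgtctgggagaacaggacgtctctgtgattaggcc
C5ar1: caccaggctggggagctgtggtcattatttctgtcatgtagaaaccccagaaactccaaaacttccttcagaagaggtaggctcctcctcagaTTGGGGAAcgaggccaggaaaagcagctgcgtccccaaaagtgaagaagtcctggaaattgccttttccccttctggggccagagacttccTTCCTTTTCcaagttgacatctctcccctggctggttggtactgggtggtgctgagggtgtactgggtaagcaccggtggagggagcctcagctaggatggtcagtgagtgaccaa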

How the data were processed

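RNA sequencing libraries of 18 ventricle samples were analysed. The authors' kallisto run divided reads among transcripts to give estimated counts, which were deposited without normalization. The deposited TPM values come from the same run and are scaled by effective transcript length within each library. Estimated counts and TPM were summed to 34989 genes by transcript identifier (GENCODE M21, GRCm38) with pandas 2.3.3, numpy 2.4.6, and scipy 1.17.1 in Python 3.11.15. Library totals were 22552581 to 46236771 estimated counts, of which mitochondrial genes took 22.7 to 34.4%.

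Rounded counts were filtered with filterByExpr, scaled by TMM, and tested with edgeR 4.0.16 (quasi-likelihood; limma 3.58.1, R 4.3.3), with Benjamini-Hochberg adjustment over the 14564 genes of LV, the 14622 of RV, or the 15093 of all 18 libraries. Storage times were compared within a fit of 9 libraries per ventricle, and the ventricles within a fit of 18. The thresholds of a call were 0.1 for the adjusted p and 1.5 for the fold change. DESeq2 1.42.0 was an alternative.

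Pairing was checked by correlating deviations from group means. Same-numbered LV and RV libraries had r between 0.325 and 0.697, against a mean of -0.258 for other pairs, so values between ventricles are also given with the pair as a replicate block. Between storage times every same-numbered pair was above 0.1 in RV. In LV this held for 4 and 8 h (0.358 to 0.568). The LV pairs of 0 h with 4 h (0.0404 to 0.261) and with 8 h (-0.0191 to 0.105) were not all above 0.1. A heart had a single storage time, so the block between times does not pair libraries of the same heart in either ventricle.

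The members and lists were chosen with earlier results of these data known. Named were the 9 members, other complement genes called in a comparison with 0 h, the most abundant gene of each marker list and those under 10 counts in every library, and the 3 genes most like each member. The marker genes named because they were called, the genes called only with the replicate block or between the ventricles, Cxcr2, Clu, and the genes Gm20547 and C4a fall outside this rule and were chosen after their values were seen. The results of 1 monocyte marker and 1 other complement gene are not reported here.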

Additional observations from a re-analysis of the deposited data

Results flagged for a closer look

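The change in C5ar1 from 0 to 8 h differed between LV and RV when same-numbered libraries were treated as pairs, with a log2 difference of -0.53 (SE 0.14, adjusted p = 0.0468 in edgeR), so that the increase was smaller in LV. The difference is under the fold change of 1.5 required for a call. Without the block it was -0.54 (SE 0.41, adjusted p = 1 in edgeR). C5ar1 was lower in LV in each of the 3 pairs at 0 h and in each of the 3 pairs at 8 h. With the block 5.71% of all genes tested were called in this comparison.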

How the results depend on the processing

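The number of the 9 genes called in each of the 11 comparisons was recomputed under each alternative. Of 122 such counts, leave-one-out fits aside, 106 were within 1.5 times the reported count and 16 were not. Of 430 log2 fold changes of single genes, 390 kept their direction and their side of the threshold, 20 newly passed it, 20 no longer did, and none changed sign. DESeq2 gave no adjusted p for Cfb in LV, so it has no value there. C4a and C4b summed was not run, since C4a has no count of its own.

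In LV at 4 h, 0 genes were called in the reported fit, and 2 each with DESeq2, with the replicate block, with the level of Y-linked genes as a covariate, and without the stored libraries numbered 3, an alternative chosen after seeing the data. In LV at 8 h, 3 were reported, 5 each were called with DESeq2, the replicate block, and the Y-linked covariate, 1 each with all 18 libraries or only the 2 groups in the fit, and 0 at an adjusted p under 0.05. In RV at 4 h, 2 were reported, 1 was called with length offsets, and 0 at an adjusted p under 0.05. In RV at 8 h, 6 were reported and 2 were called at an adjusted p under 0.05. Between LV and RV, where 0 were reported, the replicate block gave 2 without storage, 1 at 4 h, and 4 at 8 h. The replicate block left the RV counts against 0 h at 2 and 6. The cause of these changes was not tested.

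Leaving out 1 library at a time gave 0 to 1 genes in LV at 4 h, 0 to 5 in LV at 8 h, 0 to 2 in RV at 4 h, and 0 to 7 in RV at 8 h, and 0 in the other comparisons. Of 324 log2 fold changes in these fits 6 changed sign, all of C1qa or C1qc, which were not called. In LV at 4 h C1qa ranged from -0.08 (without 0 h replicate 1) to 0.42, and C1qc from -0.08 (without 0 h replicate 1, and also under 0 without 0 h replicate 2) to 0.40. In RV at 4 h C1qa ranged from -0.40 to 0.14 and C1qc from -0.35 to 0.24, both highest without 0 h replicate 3. In RV at 8 h C1qa ranged from -0.04 (without 8 h replicate 1) to 0.62.

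With 3 libraries in a group, 1 library decides many of these calls, and values without a call do not show that a gene did not change. Depth limits Cfb most at 0 h, with 36 counts in its lowest library. The labels give neither the sex of the animals nor whether same-numbered libraries share a heart, and whole tissue does not show which cells carry a transcript. Transcript levels are not protein levels, and complement protein from plasma was not measured.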
